A study of Homo sapiens with 4 samples.

Results

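The BCL2 family genes described here are 10 genes chosen by name, 5 whose proteins protect cells from death (MCL1, BCL2, BCL2L1, BCL2L2 and BCL2A1) and 5 whose proteins promote it (BAD, BID, PMAIP1, BBC3 and BCL2L11). They were looked up among 20037 protein-coding genes in 2 deposited lists of binding sites of the transcription factor SPIB, an ETS-family protein known mainly from B cells. The sites come from chromatin immunoprecipitation with sequencing (ChIP-seq) in H1703 cells, an established line from a human squamous carcinoma of the lung, made to overexpress SPIB and pulled down with the anti-FLAG M2 antibody. Every group used here shares that line and that overexpression. The attached group and the suspended group each had 1 ChIP library and 1 input library, the input being sonicated DNA without antibody. The labels describe 24 h of suspension as the treatment of all 4 libraries, attached ones included, so the condition was read from the titles. A peak was assigned to a gene where its summit, the point of highest signal, lay in the RefSeq gene span or within 5 kb of it. With 1 library per condition there is no replicate check, and all comparisons describe these libraries.

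Proteins of the BCL2 family decide whether the outer membrane of mitochondria is opened during apoptosis. MCL1, BCL2, BCL-XL (from BCL2L1), BCL-w (from BCL2L2) and BFL-1 (from BCL2A1) bind and hold the pore-forming proteins BAX and BAK. BAD, BID, NOXA (from PMAIP1), PUMA (from BBC3) and BIM (from BCL2L11) belong to the death-promoting branch, which binds the protective proteins and, for some members, activates BAX and BAK directly. Epithelial cells that lose contact with their substrate can die through this pathway, a form of death called anoikis. The series concerns resistance to anoikis, and the question put to these genes is which of them lay at SPIB peaks in each state.

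SPIB peaks in suspended cells lay at 7 of the 10 genes, among both the protective and the death-promoting members. The protective genes MCL1, BCL2L1 and BCL2L2 (3 of 5) and the death-promoting genes BAD, BID, PMAIP1 and BBC3 (4 of 5) had a suspended peak. BCL2, BCL2A1 and BCL2L11 had none. Among all protein-coding genes 28.6% had a suspended peak by the same rule. In attached cells MCL1 was the member with a peak, 1 of 10 genes, against 1.86% of all protein-coding genes, and it was thus the member in both lists, where 1.36% of genes were. Stricter choices left most of these calls in place. The same 7 genes had a suspended peak at a false discovery rate (FDR) of at most 5%, against 24.2% of protein-coding genes, and with a flank of 1 kb, against 25.0%. Among peaks at or above the median score 6 did, all but BAD, against 18.0%. The FDR is the authors' estimate from calling peaks with ChIP and input exchanged, and at 5% no member had an attached peak, where 0.105% of genes did. The 2 branches differed by 1 gene in the suspended list, and no test was made with so few genes chosen by name. The genes were chosen with earlier results of these data known. Shares above those of all protein-coding genes, here and below, can follow from that choice.

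The 7 genes held 11 suspended peaks, and MCL1 held the single attached one. Tags are the ChIP reads counted in a peak, and they are given with exact Poisson 95% intervals, which cover counting error. The 11 suspended peaks held between 8 and 122 tags with a median of 27, against a median of 15 over all 9024 suspended peaks, and 9 of them lay above that median. Their median width was 391 bp against 252 bp for the list, and 9 were wider. The authors' fold enrichment over local background ran the other way, since 1 of the 11, the BID peak, lay above the list's median fold of 9.1. Against the whole list, the peaks at these genes were thus mostly broad and of many tags, with a modest fold. Such medians for peaks at all other protein-coding genes are not given here, so this is not shown to be particular to these genes. Longer peaks hold more tags by construction, so tags are not compared between genes as a level of binding.

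**Figure D1:**
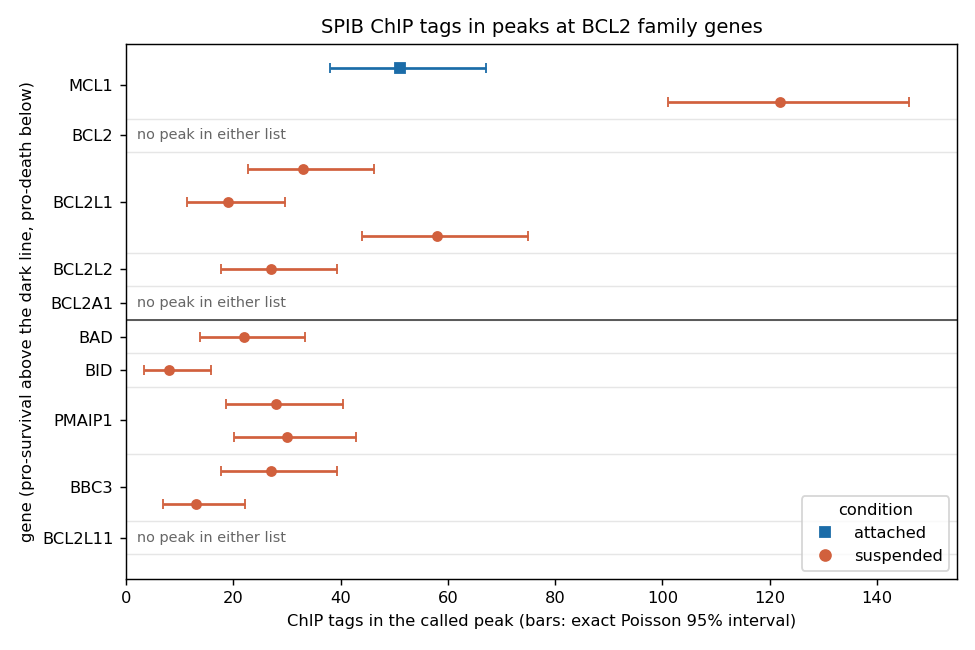
ChIP tags (x axis) in each called peak at the 10 BCL2 family genes (y axis), with squares for the attached and circles for the suspended library and bars for exact Poisson 95% intervals. The suspended MCL1 peak, with 122 tags, lies to the right of every other peak drawn, and BCL2, BCL2A1 and BCL2L11 have no peak.

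MCL1 encodes a short-lived protective protein. Its gene spans chromosome 1, 150574558 to 150579610 (hg38). The attached peak, chr1:150579307-150579766, was 460 bp wide and held 51 tags (95% interval 38.0 to 67.1), with a fold of 11.72. The suspended peak, chr1:150578647-150580106, was 1460 bp wide and held 122 tags (101.0 to 146.0), with a fold of 8.97. Both peaks sat on the higher-coordinate end of the gene. Their summits lay 49 bp apart, the attached one 39 bp inside the gene and the suspended one 10 bp outside it. The suspended peak reached 660 bp further into the gene and 340 bp further out of it than the attached peak. LOC107985203, a long noncoding RNA gene, lies beside this end, and its span lay 210 bp from the suspended summit and 259 bp from the attached one. The position therefore does not tell the 2 genes apart.

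Within their own lists the MCL1 peaks ranked high by tags and score but not by fold. The score is minus 10 times the log10 of the MACS p-value. The suspended peak ranked 63 by tags, 60 by width and 34 by score among 9024 peaks, but 4622 by fold. The attached peak ranked 24 by tags, 43 by width and 49 by score among 462, and 344 by fold. The authors' FDR was 0% for the suspended and 18.37% for the attached peak. In the attached list 49 peaks had an FDR no higher than that.

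The MCL1 peak held more tags in the suspended library over the whole called peak, while per bp of peak the 95% interval of the ratio included 1. Divided by the filtered ChIP tags of each library, the suspended peak held 2.43 times the tags of the attached one (exact conditional binomial 95% interval 1.74 to 3.44, counting error only). Scaled instead to the tags in peaks called in both lists, the ratio was 1.51 (1.08 to 2.14). The ratio of 2.43 ranked 20 among the 210 attached peaks that overlap a suspended peak, whose median was 1.36. The width ratio of 3.17 ranked 4 among the same sites, where the median was 1.19. Per bp of called peak the ratio was 0.766 (0.548 to 1.08), rank 199 of 210, against a median of 1.1. The larger count thus goes with a peak called over a longer stretch, and the mean density was 11.1 tags per 100 bp in the attached and 8.36 in the suspended peak. Whether the density around the shared summit differs cannot be read from 1 count per peak.

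**Figure D2:**
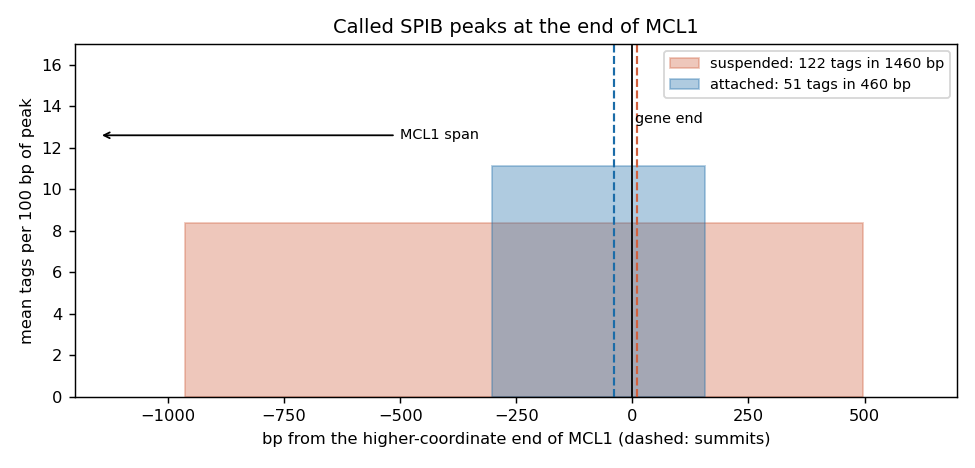
Mean tags per 100 bp (y axis) over the called attached and suspended peaks at MCL1, against distance in bp from the higher-coordinate end of the gene (x axis), with dashed lines at the summits. The attached peak is narrower and denser (11.1 tags per 100 bp in 460 bp) than the suspended peak (8.36 in 1460 bp), and the summits are 49 bp apart.

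The MCL1 gene lay in a stretch of chromosome 1 with many suspended peaks. Within 500 kb of the gene there were 22 suspended summits, more than around 96.9% of protein-coding genes, whose median was 5. In attached cells there were 2, a number shared by 879 genes and exceeded by 122 of 20037. The 22 suspended peaks held a median of 54 tags, with a lowest value of 12, against the median of 15 for the whole list. The MCL1 peak had the most tags and the highest score of the 22, and ranked 3 by fold and by width. The peak with the next most tags, 119 in 1548 bp, lay 17.7 kb to the lower-coordinate side of that MCL1 end and had a fold of 4.2. The number of DNA copies in this region was not measured here, and its part in the tag counts was not tested. Just outside the 5 kb limit, the nearest suspended summit was 6175 bp from MCL1, in a peak of 28 tags with a fold of 5.88.

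**Figure D3:**
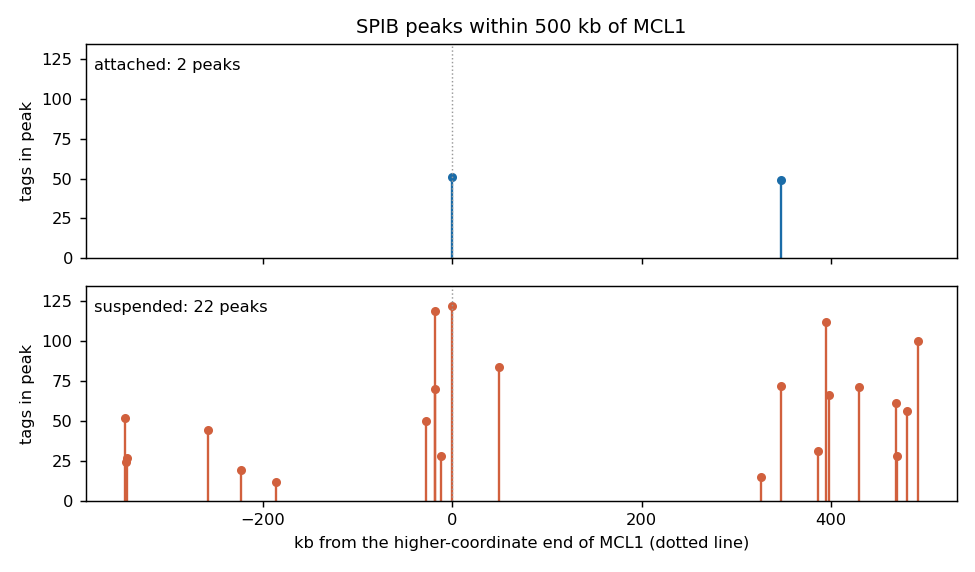
Tags in each called peak (y axis) within 500 kb of MCL1, against distance in kb from its higher-coordinate end (x axis, dotted line at 0), for the attached (upper) and suspended (lower) list. The suspended list has 22 peaks here and the attached list 2, and the MCL1 peak, with 122 tags, is the highest.

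Genes with a similar pair of peaks were sought among the 116 protein-coding genes that had a summit within 1 kb of a gene end in both lists. Likeness was the distance in log2 depth-scaled tags over the 2 libraries, taking for each gene and list the peak with most tags. The closest were NSUN2 and SRD5A1, neighbours on chromosome 5 that share their peaks (65 attached and 111 suspended tags, distance 0.376). CASKIN2 and TSEN54, neighbours on chromosome 17 that also share theirs, followed (38 and 112 tags, distance 0.442). ZFR on chromosome 5 came next (72 and 112 tags, distance 0.513). The suspended peaks of these 5 genes were 1107 to 1500 bp wide and the attached ones 340 to 891 bp wide. The genes were picked by tags, and longer peaks hold more tags by construction. Wider suspended than attached peaks, as at MCL1, can therefore follow from that choice and are not a separate likeness.

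BCL2L1 encodes BCL-XL, a protective protein of the mitochondrial membrane, and held the most suspended peaks of the 10 genes, 3, where 2.33% of protein-coding genes had at least 3. It spans chromosome 20, 31664452 to 31723963. The peak at chr20:31722478-31723418 was the largest, with 58 tags (44.0 to 75.0) in 941 bp and a fold of 6.61. Its summit lay 244 bp downstream of one of the 2 start sites that the RefSeq promoter table gives, on the minus strand. The 250 bases before that start site lay wholly under the peak and held no GGAA or TTCC, the core letters bound by ETS proteins. The other peaks lay at the opposite end of the gene. One, chr20:31665381-31665771, held 19 tags (11.4 to 29.7) inside the gene, 1093 bp from that end, with an FDR of 5.77%. The other, chr20:31661515-31662067, held 33 tags (22.7 to 46.3), 2806 bp outside the gene. No attached summit lay within 5 kb, and the nearest was 244645 bp away.

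BCL2L2 encodes BCL-w, a protective relative, and spans chromosome 14, 23306833 to 23311751. Its suspended peak, chr14:23306655-23307040, held 27 tags (17.8 to 39.3) with a fold of 6.04 and an FDR of 0.55%. The summit lay 51 bp inside the lower-coordinate end. The readthrough gene BCL2L2-PABPN1 shares that end, so the peak belongs to both. PPP1R3E, which encodes a regulatory subunit of a glycogen-associated phosphatase, lay 4025 bp away.

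BCL2 and BCL2A1 were the protective genes outside both lists. BCL2, the founding member of the family, spans 196745 bp on chromosome 18, and 41.9% of protein-coding genes over 100 kb had a suspended peak. Its nearest suspended summit was 54982 bp away, in a peak of 10 tags. BCL2A1, a gene known mainly from blood cells, had its nearest suspended summit 68604 bp away, in a peak of 9 tags. A gene outside a peak list is not shown to be unbound, since the lists hold the sites that passed the authors' cutoff.

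PMAIP1 encodes NOXA, which binds MCL1 in particular, and spans chromosome 18, 59899996 to 59904305. It held 2 suspended peaks, where 8.32% of protein-coding genes had at least 2. The first, chr18:59899522-59899894, held 28 tags (18.6 to 40.5) with a fold of 8.4 and an FDR of 1.0%. The second, chr18:59900499-59900980, held 30 tags (20.2 to 42.8) with a fold of 4.25 and an FDR of 6.31%. The first summit lay 357 bp upstream and the second 835 bp downstream of the start site, which falls in the 604 bp between the called peaks. These were the only suspended summits within 500 kb of the gene. The 149 bases of the first peak that the RefSeq promoter window covers (GRCh38.p14, chr18:59899746-59899894, plus strand, ending 102 bp before the start site) are shown because this is the member of the promoter table, which holds neither MCL1 nor BCL2L2, with the most sequence outside the gene span under a peak. Capitals mark GGAA and its reverse complement TTCC.
PMAIP1: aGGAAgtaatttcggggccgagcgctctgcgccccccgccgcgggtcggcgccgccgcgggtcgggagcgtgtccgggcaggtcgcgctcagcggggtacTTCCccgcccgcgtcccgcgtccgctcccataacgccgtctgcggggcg

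BAD encodes a death-promoting protein that growth factor signalling holds inactive by phosphorylation. It spans chromosome 11, 64269828 to 64284704. Its suspended peak, chr11:64284367-64284746, held 22 tags (13.8 to 33.3) with a fold of 6.55 and an FDR of 4.62%. The summit lay 15 bp inside the gene from a start site. It also lay 154 bp upstream of a start site of GPR137, a membrane protein gene read in the opposite direction. That start site is within the GPR137 span, which overlaps BAD, and the summit lay inside this span, 4811 bp from its nearer end. The peak is thus near a start site of each gene. The 42 bases under the peak that lie upstream of BAD (GRCh38.p14, chr11:64284705-64284746, minus strand) hold 1 match, in capitals as above.
BAD: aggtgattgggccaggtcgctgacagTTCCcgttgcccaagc

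BBC3 and BID had suspended peaks well inside the gene and away from their starts. BBC3 encodes PUMA, which binds all the main protective proteins, and spans chromosome 19, 47220824 to 47232860. Its peaks at chr19:47227886-47228282 and chr19:47228438-47228686 held 27 (17.8 to 39.3) and 13 tags (6.92 to 22.2), with folds of 5.69 and 6.07 and FDRs of 1.0% and 6.31%. Their summits lay 514 bp apart, 4623 and 4109 bp downstream of the start site. The microRNA genes MIR3190 and MIR3191 lay 1023 and 1025 bp from the first summit. BID links death receptors to mitochondria after cleavage by caspase 8. Its peak, chr22:17758876-17759007, held 8 tags (3.45 to 15.8), the lowest number in the suspended list, in 132 bp. Its fold of 15.14 ranked 469 of 9024, and its summit lay 15037 bp downstream of the nearest start site. At this 1 peak a high fold went with few tags.

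BCL2L11 encodes BIM, a death-promoting protein studied in anoikis, and spans chromosome 2, 111120914 to 111168445. It had no peak in either list. The nearest suspended summit lay 187113 bp away, in a peak of 10 tags, and the nearest attached summit 12362601 bp away.

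**Figure D4:**
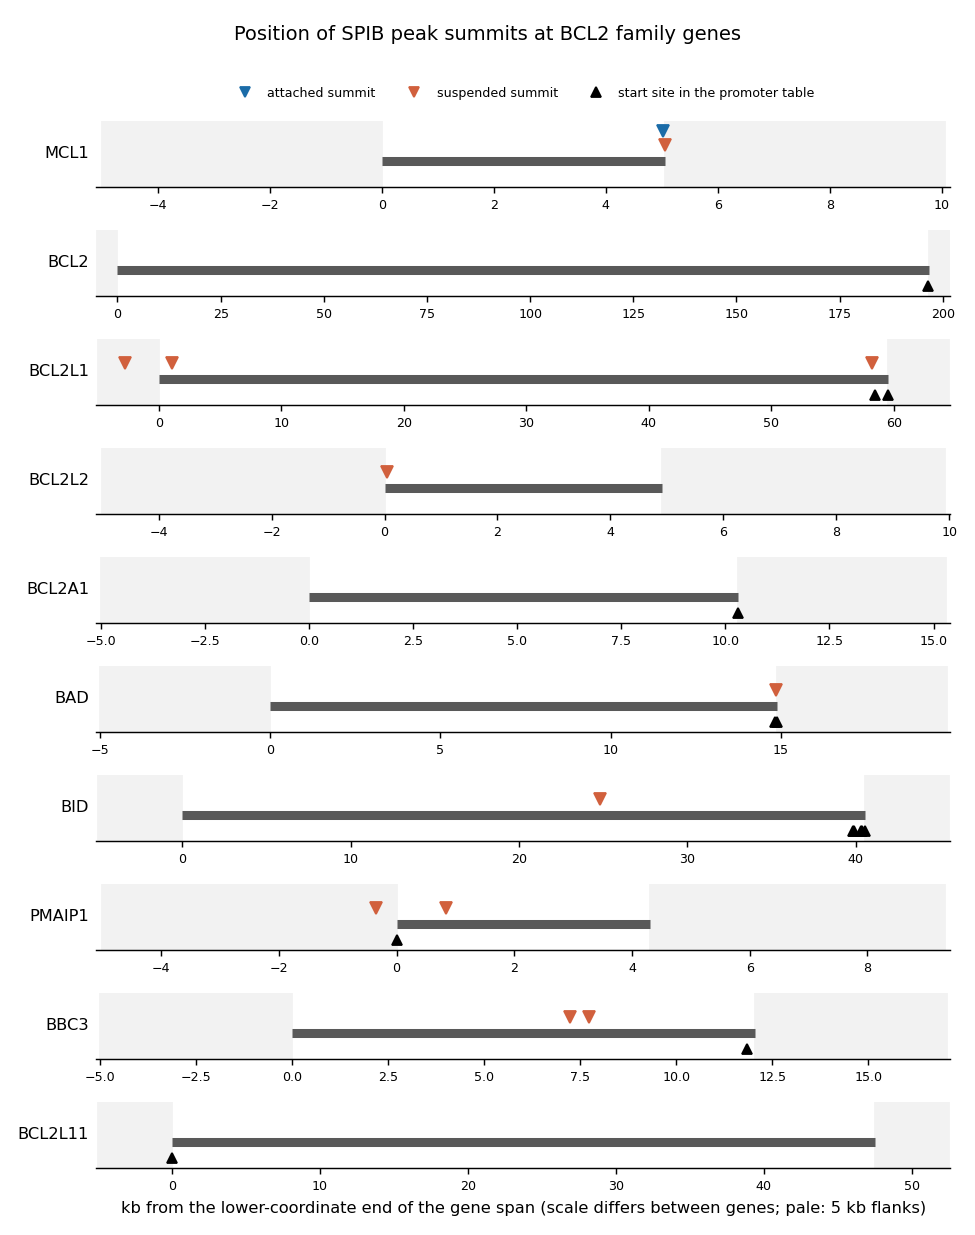
Peak summits (downward triangles, attached above suspended) along the span of each of the 10 genes (dark bars) with 5 kb flanks (pale), in kb from the lower-coordinate end on a scale that differs between genes, and start sites from the promoter table (upward triangles). Summits at MCL1, BCL2L2, BAD and PMAIP1 lie within 1 kb of a gene end, and those of BID and BBC3 lie inside the gene.

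Members of both branches had peaks near gene ends. A suspended summit lay within 1 kb of a gene end at 4 of the 10 genes, the protective MCL1 and BCL2L2 and the death-promoting BAD and PMAIP1, against 13.8% of protein-coding genes. In attached cells MCL1 did, against 0.809%. Of the 8 members in the promoter table, BCL2L1, BAD and PMAIP1 had a suspended summit within 1 kb of a start site, against 14.7% of 15843 protein-coding genes. All 3 members under 10 kb (MCL1, BCL2L2 and PMAIP1) had a suspended peak, where 18.8% of genes of that length did. Of the members of 10 to 100 kb, 4 of 6 had one, where 29.7% of genes did.

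The number of peaks around the genes varied widely. BAD and BCL2L1 had 14 and 13 suspended summits within 500 kb, more than around 88.4% and 86.5% of protein-coding genes. BBC3 had 10 and BCL2L2 had 9. BCL2 had 6. BID with 4, PMAIP1 and BCL2L11 with 2 each and BCL2A1 with 1 lay below the median of 5 for all genes. These numbers include the peaks of the gene itself. At BCL2L2 the peak had the most tags of the 9, whereas the BAD peak ranked 2 by tags and 9 by score of 14.

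**Figure D5:**
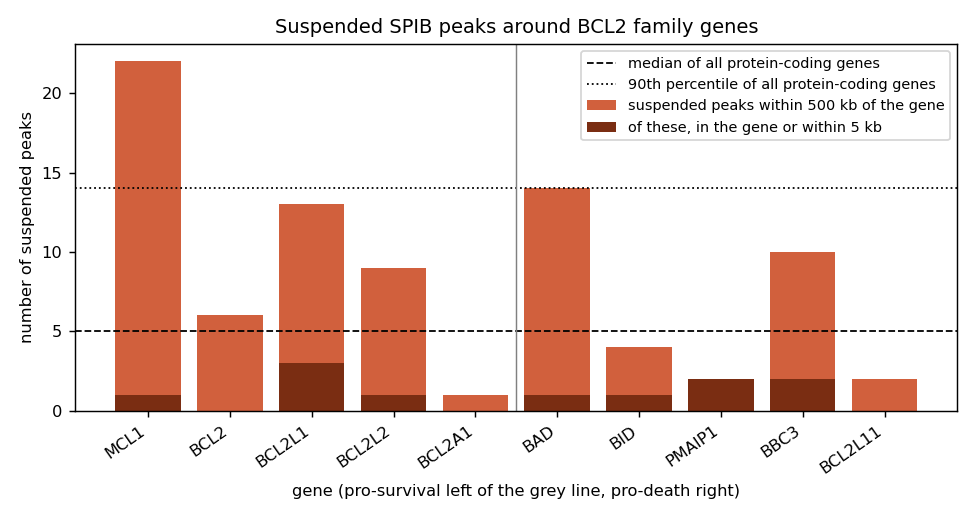
Number of suspended peaks (y axis) within 500 kb of each of the 10 genes (x axis), with the part in the gene or within 5 kb in dark, the median of all protein-coding genes (5) dashed and their 90th percentile (14) dotted. MCL1 stands above the 90th percentile with 22, and PMAIP1 has 2, both its own.

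Promoter sequence was read for the 8 members in the RefSeq promoter table, from 250 bases before to 50 after each start site. GGAA or TTCC was found in a window of 7 of these 8 members, BCL2L11 having none, where a member has up to 5 windows. By window the share was 13 of 14, against 95.5% of all 35116 windows, so the core letters do not tell members apart. The longer GAGGAAG, a type of sequence known for SPIB and its relative SPI1, was found on either strand in 13.6% of all windows and in 4 of the 14, those of BCL2L1, BCL2A1 and BID. The BID windows among the 4 overlap and hold the same 2 matches, so they are not separate. The sequence CCGGAAG, known for other ETS factors, was found in 10.3% of all windows and, among members, at BCL2L1. That match, 12 bp downstream of the other BCL2L1 start site, lay under no suspended peak. Both longer sequences contain GGAA, so the counts overlap. The GAGGAAG matches are shown with 8 bases on each side, as capitals, to set the match under a peak beside those that are not.
BCL2L1, minus strand, centred 22 bp downstream of a start site (chr20:31722835-31722857), under the suspended peak: cgatggagGAGGAAGcaagcgag
BCL2A1, minus strand, 79 bp upstream (chr15:79971264-79971286), no peak: gtgactagGAGGAAGgatattat
BCL2A1, minus strand, 176 bp upstream (chr15:79971361-79971383), no peak: cacaggatGAGGAAGtggcttct
BID, minus strand, 6 bp downstream (chr22:17774452-17774474), no peak there: gccataagGAGGAAGcgggtagt
BID, minus strand, 7 bp downstream of another start (chr22:17774477-17774499), no peak there: ggccgaagGAGGAAGcgcgcggg
Of the 5 matches, 1 lay under a suspended peak. Over all genes, suspended peaks touched 2140 of the 35116 windows. They touched 9.34% of the 4775 windows with GAGGAAG, and the sequence was in 20.8% of touched and 13.1% of other windows. For CCGGAAG they touched 11.7% of 3603 windows, and the sequence was in 19.6% of touched and 9.65% of other windows. A higher share in touched windows was thus not particular to GAGGAAG. The PMAIP1 and BAD windows, which suspended peaks touched, held neither longer sequence. A match is a description of letters and not a binding site.

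The rest of the pathway was followed in 4 lists of genes. Of 11 other BCL2 family genes, 4 had a suspended peak (36.4%, against 28.6% of all protein-coding genes) and none within 1 kb of a gene end (against 13.8%). With a flank of 1 kb the count was 1, against 25.0%. BOK, a relative of BAX and BAK, had 24 tags (15.4 to 35.7) 42 bp upstream of a start site, with a fold of 7.78. BAK1, which encodes the pore-forming protein BAK, had 2 peaks of 23 and 22 tags, with folds of 5.89 and 4.92. Their summits lay 1625 and 3092 bp outside the gene, and the second peak had an FDR of 6.31%. BCL2L13 (fold 10.43) and BCL2L12 (7.62) had summits 2247 and 4397 bp outside the gene. BAX, the other main pore-forming gene, and the death-promoting BIK, HRK and BMF had none.

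Among 13 genes that act from mitochondria to caspases, 4 had a suspended peak (30.8%). APAF1, the scaffold of the apoptosome, had 27 tags (17.8 to 39.3) 672 bp upstream of a start site. It dropped out where a peak counted for its nearest protein-coding gene alone, which left 3 genes. XIAP, a caspase inhibitor, had 19 tags (11.4 to 29.7) 338 bp downstream of a start site. VDAC1, a channel of the outer mitochondrial membrane, had 2 peaks with folds of 8.25 and 5.96, the second 186 bp upstream of a start site. Death-promoting and protective genes are mixed here too, and 30.8% is near the 28.6% of all protein-coding genes.

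Of 5 genes known for turnover of the MCL1 protein, 1 had a suspended peak (20.0%, against 28.6% of all protein-coding genes). It was MARCHF5, which encodes a mitochondrial ubiquitin ligase, with 59 tags (44.9 to 76.1) 555 bp upstream of a start site. The count was 0 where a peak counted for its nearest protein-coding gene alone. HUWE1, USP9X, FBXW7 and BTRC had none. Of 10 transcription factors known to act on BCL2 family genes, 5 had one, against 28.6% of all protein-coding genes. At an FDR of at most 5% the count was 3, against 24.2%, since the RELA and FOXO3 peaks have FDRs of 5.96% and 5.64%. STAT3, known to act on MCL1, had 60 tags (45.8 to 77.2) 393 bp upstream of a start site and a second peak of 44 tags inside the gene. DDIT3 (fold 10.08), RELA (7.62) and FOXO3 (5.34) had peaks inside the gene or in its 5 kb flank. In attached cells no gene of these 4 lists had a peak, where 1.86% of all protein-coding genes did.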

How the data were processed

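The authors used MACS 1.4.2 to call peaks of each ChIP library over the matching input, per the file headers, with a p cutoff of 1e-05 and 1 tag kept per position. Per the submitters' processing notes the build is hg38. No aligner is given in the sources used here. The deposited lists give tags as a count per peak that is not normalized, the authors' fold as a ratio to local background, a score (minus 10 times log10 of the p-value, read from its place because the column name was lost) and the FDR as a percent. The modelled fragment length was 58 bp (attached) and 63 bp (suspended). Filtered ChIP tags were 21108364 (attached) and 20766909 (suspended), and input tags 15878452 and 21437074. Intervals hold counting error alone.

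Gene spans came from a RefSeq table and start sites from a RefSeq promoter table, both GRCh38.p14. The analysis used Python 3.11.15, numpy 2.4.6, pandas 2.3.3, SciPy 1.17.1 and matplotlib 3.10.9. Gene counting was tested on simulated data, where 800 of 800 summits placed at 200 genes were counted correctly. The members and lists were chosen with earlier results of these data known. The rule named all 10 members, genes reached by their peaks, the 5 genes most like MCL1, and from 4 other lists each gene whose end had a summit within 1 kb and up to 4 others by fold. Peak sequences outside the promoter windows were not analysed here. Some genes of the lists are counted but not reported by name here.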

Additional observations from a re-analysis of the deposited data

How the results depend on the processing

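The 7 members with a suspended peak stayed at 7 with flanks of 1 or 10 kb, with any base of the peak in place of the summit, and at an FDR of at most 5%. They became 6 for peaks at or above the median score (BAD lost) and 6 when a peak counted for its nearest protein-coding gene alone, where BCL2L2 tied with BCL2L2-PABPN1. At an FDR of at most 5% no member had an attached peak (0), because the MCL1 peak has an FDR of 18.37%. The MCL1 ratio was 0.766 per bp of peak, below 1 but with an interval that includes 1 (0.548 to 1.08). It was 1.51 (1.08 to 2.14) when scaled to tags in peaks called in both lists. No other member site was called in both lists. Other BCL2 family genes fell from 4 to 1 with a flank of 1 kb and to 2 with the nearest gene alone. Genes that act from mitochondria to caspases fell from 4 to 3 with the nearest gene alone (APAF1 lost). They also fell to 3 at or above the median score (XIAP lost). MCL1 turnover genes fell to 0 with the nearest gene alone. Transcription factors fell from 5 to 3 at an FDR of at most 5%, at or above the median score, and with the nearest gene alone. Fewer peaks or genes enter these counts by construction. In place of GGAA in 7 of 8 members, GAGGAAG was found in 3 and CCGGAAG in 1. No paired analysis was possible because each condition has 1 ChIP library.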
